A study of Mus musculus with 9 samples.

Results

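The genes described here are 7 transcription factors that hold intestinal epithelial cells in their identity: the homeobox genes Cdx1 and Cdx2, the nuclear receptor genes Hnf4a and Hnf4g, the zinc finger genes Klf4 and Klf5, and Gata6. They were chosen by symbol, with earlier results of these data known. The table held 35315 genes measured in colon tissue of wild-type (WT) C57BL/6J mice. All 7 were in the table and passed the filter on low values. The mice were 8 weeks old and formed 3 groups of 3 libraries. In the Control group the mice had normal drinking water, and no injection is listed for them. DSS mice drank 2.5% dextran sulfate sodium (DSS), which damages the lining of the colon and causes colitis, for 7 days and were injected intravenously with solvent on days 2, 4 and 6. GsMTx4 mice had the same DSS and, on the same days, received 10 mg/kg of GsMTx4, a spider-venom peptide that blocks mechanosensitive cation channels such as Piezo1. The DSS group therefore differs from Control in both DSS and injection, and these cannot be told apart. Levels are FPKM, which scale fragments to transcript length and library size, so they can be compared between genes.

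CDX factors bind the regulatory DNA of gut genes and set the hindgut character of the epithelium, and loss of CDX2 in the intestine is known to let foregut programmes appear. HNF4A and HNF4G bind fatty acids and act on largely shared sites in genes of absorption, lipid handling and the brush border. KLF4 is known as a factor of differentiated surface and goblet cells, whereas KLF5 is known as a factor of the dividing cells of the crypt. GATA6 is the GATA factor of the colon, where GATA4 is normally absent, and it is known to act in proliferation and in the secretory lineages.

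Promoters of Hnf4a, Klf4 and Cdx2 from the RefSeq promoter table (GRCm38.p6) are shown because the factors are known to act on each other's genes. Those of the other factor genes are not shown, whether or not they had an entry, so the matches described here cover these 3 genes only. Each stretch is the sequence of up to 250 bases just before a transcription start, with transcribed bases left out, 5′ to 3′ on the gene's strand. Hnf4a has an upstream start, known as P2, and a downstream start, known as P1. Hnf4a changed between the groups, whereas Klf4 and Cdx2 did not pass the test. Capitals mark matches on either strand to 1 of the motifs listed after the sequences.
Hnf4a upstream start (chr2:163506607-163506807, plus strand): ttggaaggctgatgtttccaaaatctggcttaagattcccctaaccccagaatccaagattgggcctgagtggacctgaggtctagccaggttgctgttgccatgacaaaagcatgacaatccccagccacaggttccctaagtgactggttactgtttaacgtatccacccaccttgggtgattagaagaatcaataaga
Hnf4a downstream start (chr2:163546905-163547154, plus strand): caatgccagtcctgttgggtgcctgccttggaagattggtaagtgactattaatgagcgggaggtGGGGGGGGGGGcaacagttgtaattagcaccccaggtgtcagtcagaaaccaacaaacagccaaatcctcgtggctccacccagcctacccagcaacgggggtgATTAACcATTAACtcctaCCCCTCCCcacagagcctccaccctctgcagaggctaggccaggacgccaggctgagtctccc
Klf4 (chr4:55532476-55532725, minus strand): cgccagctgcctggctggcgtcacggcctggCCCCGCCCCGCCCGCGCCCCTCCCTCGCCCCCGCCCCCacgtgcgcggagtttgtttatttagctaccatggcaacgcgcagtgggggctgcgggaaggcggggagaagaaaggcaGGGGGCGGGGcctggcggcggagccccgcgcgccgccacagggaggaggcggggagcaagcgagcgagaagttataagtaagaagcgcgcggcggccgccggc
Cdx2 (chr5:147307271-147307499, minus strand): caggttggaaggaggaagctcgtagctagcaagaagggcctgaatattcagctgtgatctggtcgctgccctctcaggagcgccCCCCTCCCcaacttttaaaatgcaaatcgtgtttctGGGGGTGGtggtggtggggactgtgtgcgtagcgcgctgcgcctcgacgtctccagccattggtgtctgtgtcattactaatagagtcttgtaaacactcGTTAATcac
The search used CAAAGTNCA for HNF4 (present in 1.19% of 32851 promoter windows of the table, both strands), GTTAATNAT for HNF1 (0.737%), TTTATG for CDX (10.8%), AGATAA for GATA (9.99%) and CCNCNCCC for the KLF and SP factors (45.9%). The letters GTTAAT, the first part of the HNF1 motif and so overlapping with it, were added after the sequences were seen (6.43%). The HNF4, HNF1, CDX and GATA letters were not found in the 4 windows. The KLF and SP letters matched 9 times before Klf4, with overlaps between matches, 2 times before Cdx2 and 5 times before the downstream start of Hnf4a, 4 of them within 1 run of G. The letters GTTAAT matched 2 times before the downstream start of Hnf4a and 1 time before Cdx2, and none of the motifs matched before the upstream start. The Klf4 window had 74.0% G and C bases, against 57.6% and 47.3% at the downstream and upstream starts of Hnf4a, 53.7% for Cdx2 and a median of 52.4% over all windows. The deposited table has 1 value per gene, so the starts of Hnf4a cannot be separated in the measurements that follow.

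In the Control colon the factors covered a wide range of levels. Klf4 was highest at 203 ± 14.2 FPKM (mean ± SD, n = 3 libraries, as for all means here), followed by Hnf4a at 168 ± 13.4 FPKM and Cdx1 at 161 ± 16.4 FPKM. Klf5 stood at 54.9 ± 4.42 FPKM, Cdx2 at 34.9 ± 8.12 FPKM, Hnf4g at 9.52 ± 2.00 FPKM and Gata6 at 6.07 ± 0.220 FPKM. Between neighbours in this order, Hnf4a and Cdx1 overlapped between libraries and the others did not. The order of the means was the same in the DSS and GsMTx4 groups. In DSS, Hnf4a overlapped with Cdx1, Klf5 with Cdx2, and Hnf4g with Gata6. In GsMTx4, Hnf4a overlapped with Cdx1, and Cdx2 overlapped with Hnf4g because 2 GsMTx4 libraries had little Cdx2. Paralogs known from other organs were close to 0: Cdx4, a factor of the early embryo, reached at most 0.0247 FPKM in any library, and Gata4, the GATA factor of the upper small intestine, at most 0.0187 FPKM.

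**Figure D1:**
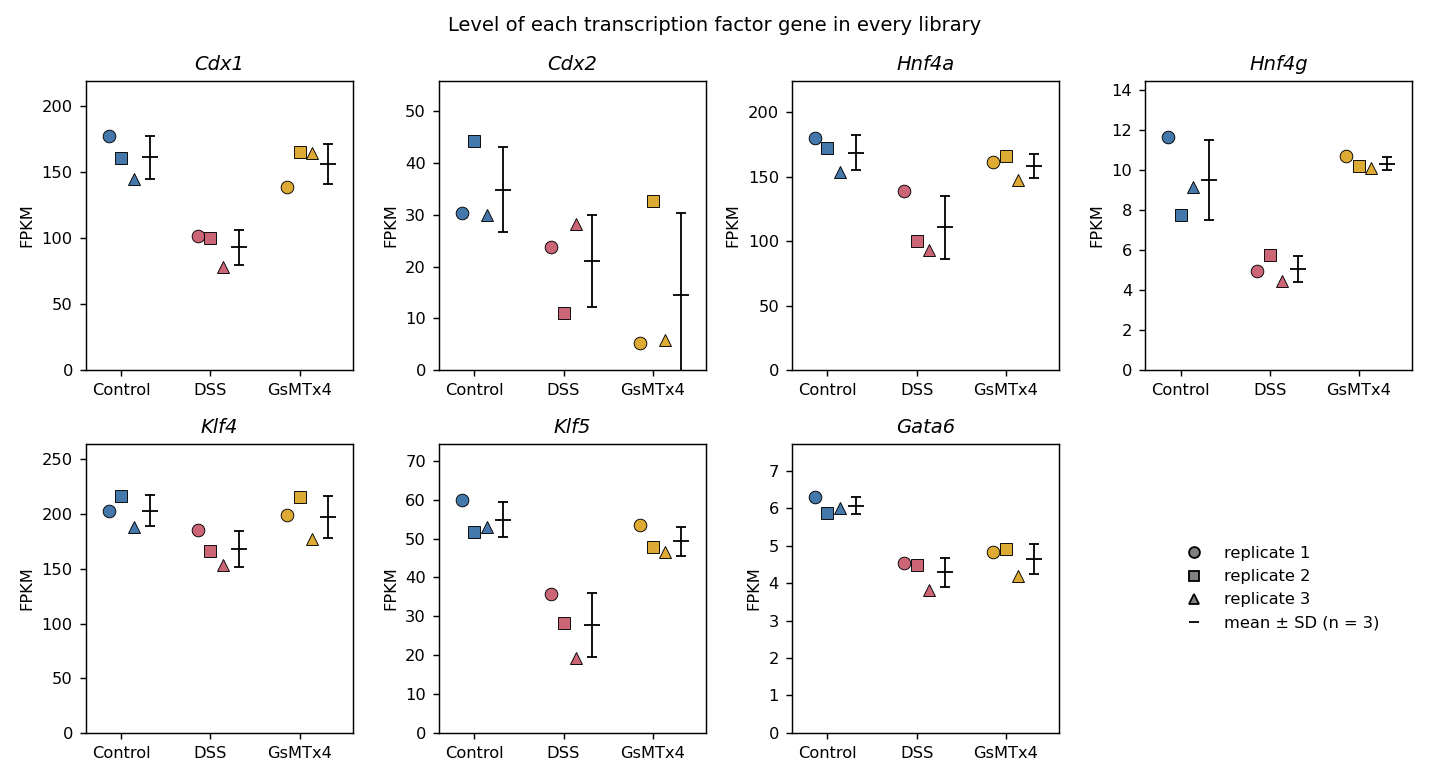
Level of each factor gene in FPKM (vertical axes, each from 0 and with its own range) in the Control, DSS and GsMTx4 libraries. Symbols give the replicate, and the bar beside each group is the mean ± SD of 3 libraries, ending at 0 where the SD of Cdx2 in GsMTx4 (15.7) exceeds its mean (14.6). Cdx1, Hnf4g and Klf5 are low in the 3 DSS libraries, and Cdx2 is at 5.21 and 5.90 FPKM in GsMTx4 1 and 3 against 32.7 FPKM in GsMTx4 2.

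In DSS colitis the group of factors was lower, and in the colon of DSS mice given GsMTx4 part of it was higher again. In DSS against Control, 5 of the 7 genes fell (Klf5, Hnf4g, Cdx1, Hnf4a and Gata6), none rose, and Klf4 and Cdx2 did not pass the test. Among all 14360 genes tested, 10.7% passed as lower and 6.41% as higher in that comparison. The median log2 fold change was -0.78 over the 7 genes and -0.17 over all tested genes. The DSS and Control libraries did not overlap for any of the 7, each being lower in DSS, and 33.6% of all tested genes were lower without overlap.

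In GsMTx4 against DSS, 3 of the 7 rose (Hnf4g, Klf5 and Cdx1) and none fell, where 6.66% of all tested genes passed as higher and 5.62% as lower. The median was 0.54, against 0.07 over all tested genes. Hnf4a joined these 3 among the genes whose libraries did not overlap, which makes 4 of 7 against 17.5% of all tested genes. In GsMTx4 against Control no factor passed limma's test, while 0.0487% of all genes passed as lower and 0.188% as higher. Gata6 and Cdx2 had an unadjusted p under 0.05 there, and Gata6 was the 1 gene of the 7 that was lower without overlap, as were 14.6% of all tested genes. The same 3 DSS libraries enter the comparison with Control and that with GsMTx4, so a high or low DSS library moves both in opposite directions. Whether each library is from its own mouse is not in the labels, and the p-values measure only the spread between these libraries.

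**Figure D2:**
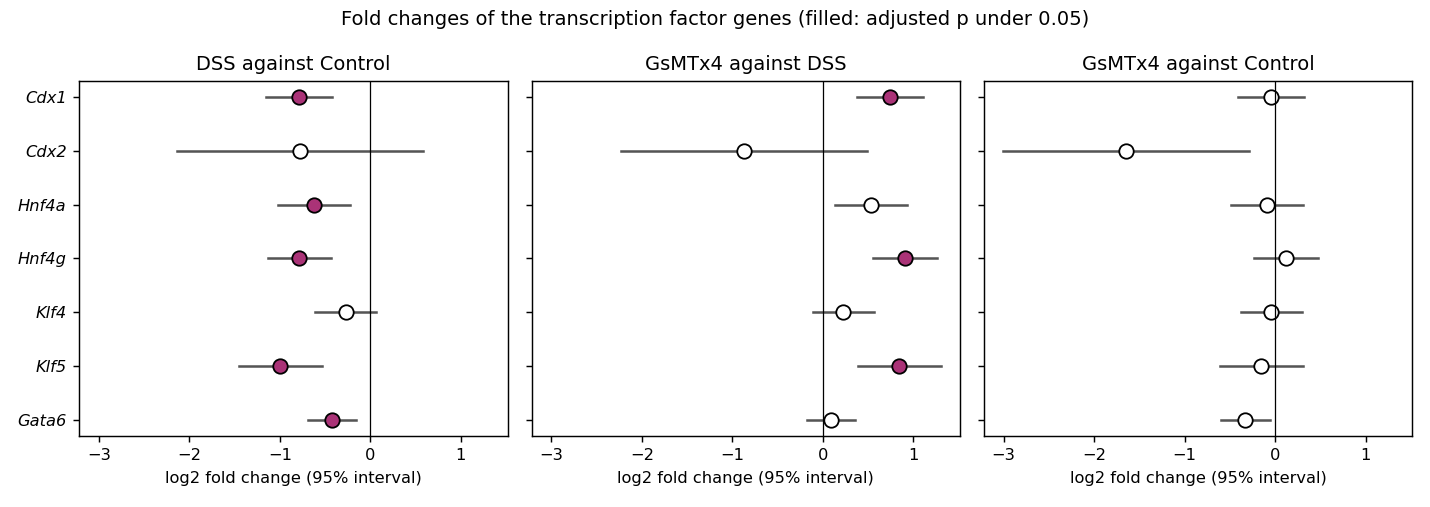
Log2 fold change of each factor gene on the log2(FPKM + 1) scale (horizontal axes) with its 95% interval from limma, for the 3 comparisons. Filled points passed at an adjusted p under 0.05: 5 genes to the left of 0 in DSS against Control, 3 to the right in GsMTx4 against DSS and none in GsMTx4 against Control.

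Cdx1 (chromosome 18, 61018862 to 61036199, minus strand, GRCm38, as for all positions here), the homeobox factor of the lower crypt and hindgut, stood at 177, 161 and 145 FPKM in Control 1, 2 and 3. It was at 101, 99.9 and 77.8 FPKM in DSS 1, 2 and 3 and at 139, 165 and 164 FPKM in the GsMTx4 libraries. The DSS libraries lay below all others, and GsMTx4 and Control overlapped. Cdx1 fell in DSS by 0.79 ± 0.16 on the log2 scale (± SE, adjusted p = 0.0130, limma) and rose in GsMTx4 against DSS by 0.74 ± 0.16 (adjusted p = 0.0209). GsMTx4 minus Control was -0.04, with an interval from -0.41 to 0.32. The fall missed the threshold without Control 1 (adjusted p = 0.0544), without Control 2 (0.0568) and with median-of-ratios scaling (0.0787). The rise missed it without DSS 3 (0.0580), without GsMTx4 2 (0.0803), with median-of-ratios scaling (0.0603) and when only the 2 groups were fitted (0.0775).

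Cdx2 (chromosome 5, 147300805 to 147307270, minus strand), the homeobox factor that sets intestinal identity along the gut, differed from Cdx1 in its pattern. It stood at 30.3, 44.3 and 30.1 FPKM in the Control libraries and at 23.8, 11.1 and 28.3 FPKM in the DSS libraries. In GsMTx4 1, 2 and 3 it was at 5.21, 32.7 and 5.90 FPKM. GsMTx4 1 and 3 held the lowest levels of the 9 libraries, and GsMTx4 2 was within the range of Control. The coefficient of variation was 23.3% in Control, 42.4% in DSS and 107% in GsMTx4, the largest of the 7 genes in each group. With that spread the differences did not pass limma's test: -0.78 for DSS minus Control (interval -2.14 to 0.58, adjusted p = 0.377), -0.87 for GsMTx4 minus DSS (interval -2.23 to 0.49, adjusted p = 0.368) and -1.64 for GsMTx4 minus Control (interval -3.00 to -0.28, adjusted p = 0.407). Without GsMTx4 2 the GsMTx4 minus DSS difference was -1.66 and passed as lower (adjusted p = 0.0446), and without GsMTx4 1 or GsMTx4 3 it was -0.44 or -0.51 (adjusted p = 0.677 and 0.631). Without DSS 2 the DSS minus Control difference was -0.39 (adjusted p = 0.725). Hoxd13, a homeobox gene of the distal gut, was at 78.4, 28.4 and 76.0 FPKM in GsMTx4 1, 2 and 3, the opposite order from Cdx2. It also varied within the other groups, at 56.4, 4.73 and 8.23 FPKM in Control and 52.1, 36.8 and 6.06 FPKM in DSS. The stretch of colon taken for each library is not given in the sources used here, and its part in the Cdx2 values was not tested.

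Hnf4a (chromosome 2, 163506808 to 163572910, plus strand), a nuclear receptor of gut and liver, stood at 180, 172 and 154 FPKM in Control. It was at 139, 100 and 92.9 FPKM in DSS and at 162, 166 and 148 FPKM in GsMTx4. The DSS libraries were below all the others, with DSS 1 nearest to them, and GsMTx4 lay within or just below the Control range. Hnf4a fell in DSS by 0.62 ± 0.18 on the log2 scale (adjusted p = 0.0404, limma). GsMTx4 minus DSS was 0.54 ± 0.18 and missed the threshold (adjusted p = 0.0782), and GsMTx4 minus Control was -0.09 with an interval from -0.48 to 0.31. The fall in DSS passed in 10 of 21 alternatives, with adjusted p from 0.0177 to 0.164. Leaving out a library ended it for Control 1 (0.126), Control 2 (0.128), Control 3 (0.0832), DSS 2 (0.104), DSS 3 (0.103), GsMTx4 1 (0.0502) and GsMTx4 2 (0.0568). The difference between GsMTx4 and DSS passed without DSS 1 (0.0339) and with the epithelial markers held level (0.0361). Transcripts of Hnf4aos, which is antisense to Hnf4a, reached at most 0.0488 FPKM in any library.

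Hnf4g (chromosome 3, 3508030 to 3658052, plus strand), the relative of Hnf4a known mainly from the gut, was at 11.7, 7.74 and 9.14 FPKM in Control. It was at 4.95, 5.76 and 4.47 FPKM in DSS and at 10.7, 10.2 and 10.1 FPKM in GsMTx4. Each DSS library was below each of the other 6, and the 3 GsMTx4 libraries lay close together inside the Control range. Hnf4g fell in DSS by 0.79 ± 0.16 on the log2 scale (adjusted p = 0.0112, limma) and rose in GsMTx4 against DSS by 0.91 ± 0.16 (adjusted p = 0.00918). Both calls were kept in all 21 alternatives, with adjusted p of at most 0.0483 and 0.0360. GsMTx4 minus Control was 0.12, with an interval from -0.23 to 0.48.

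Klf5 (chromosome 14, 99298691 to 99315036, plus strand), the factor of dividing crypt cells, was at 60.0, 51.8 and 53.0 FPKM in Control. It stood at 35.6, 28.4 and 19.3 FPKM in DSS and at 53.6, 47.9 and 46.5 FPKM in GsMTx4. The DSS libraries were apart from both other groups and spread over a wide range among themselves, and GsMTx4 overlapped with Control. Klf5 had the largest drop of the 7 genes in DSS by point estimate: it fell by 0.996 ± 0.20 on the log2 scale (adjusted p = 0.0123, limma), a call kept in all 21 alternatives. It rose in GsMTx4 against DSS by 0.84 ± 0.20 (adjusted p = 0.0294), a call kept in 11 of 21 alternatives, with adjusted p from 0.0123 to 0.0899. Among left-out libraries the rise missed the threshold without Control 2 (0.0531), Control 3 (0.0530), DSS 2 (0.0555), DSS 3 (0.0547), GsMTx4 1 (0.0604) or GsMTx4 2 (0.0850). GsMTx4 minus Control was -0.15, with an interval from -0.61 to 0.31.

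Klf4 (chromosome 4, 55527143 to 55532466, minus strand), the factor of differentiated surface and goblet cells, had the smallest difference between DSS and Control of the 7 by point estimate. It was at 203, 217 and 189 FPKM in Control, at 185, 166 and 153 FPKM in DSS and at 199, 216 and 177 FPKM in GsMTx4. DSS lay just below Control without overlap, and GsMTx4 overlapped with both. Klf4 did not pass: DSS minus Control was -0.27 ± 0.15 on the log2 scale (interval -0.61 to 0.07, adjusted p = 0.224, limma). GsMTx4 minus DSS was 0.23 ± 0.15 (interval -0.11 to 0.57, adjusted p = 0.340), and GsMTx4 minus Control was -0.04 (interval -0.38 to 0.30). None of the 21 alternatives gave a call for Klf4 in any comparison.

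Gata6 (chromosome 18, 11052064 to 11085635, plus strand), the GATA factor of the colon, was at 6.32, 5.89 and 6.01 FPKM in Control. It was at 4.54, 4.49 and 3.83 FPKM in DSS and at 4.84, 4.91 and 4.19 FPKM in GsMTx4. All 6 libraries of mice given DSS were below all 3 Control libraries, and the DSS and GsMTx4 groups overlapped. Gata6 fell in DSS by 0.42 ± 0.12 on the log2 scale (adjusted p = 0.0400, limma). GsMTx4 minus DSS was 0.10 ± 0.12 (interval -0.17 to 0.36, adjusted p = 0.631), and GsMTx4 minus Control was -0.33 ± 0.12 (interval -0.59 to -0.06, adjusted p = 0.400). The fall in DSS passed in 9 of 21 alternatives, with adjusted p from 0.0298 to 0.183. It missed the threshold without Control 1 (0.126), Control 2 (0.116), Control 3 (0.114), DSS 1 (0.0650), DSS 2 (0.0614) or DSS 3 (0.0994). The transcript 1010001N08Rik starts on the opposite strand and overlaps the first bases of Gata6. Its level was 1.03, 0.946 and 1.25 FPKM in Control, 0.242, 0.455 and 0.284 FPKM in DSS and 0.521, 0.742 and 1.11 FPKM in GsMTx4. Whether counting used the strand is not given in the sources used here, so reads in the shared bases cannot be assigned.

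The relative use of paralogs was read as the log2 ratio of FPKM + 1 within each library. The added 1 keeps a low level such as that of Hnf4g from counting in full, so these ratios depend in part on that constant and on the scaling of the library. The ratio of Klf5 to Klf4 was -1.87 ± 0.16 in Control, -2.59 ± 0.30 in DSS and -1.98 ± 0.15 in GsMTx4. DSS was lower than Control by 0.72 and lower than GsMTx4 by 0.62 without overlap, each with the smallest p that 3 against 3 libraries can give (exact permutation p = 0.1, two-sided; 0.3 after adjustment over 9 ratio tests). Klf5 stood lower relative to Klf4 in each DSS library than in each of the other 6. The ratio of Hnf4g to Hnf4a was -4.02 ± 0.25 in Control, -4.19 ± 0.34 in DSS and -3.81 ± 0.08 in GsMTx4. GsMTx4 was above DSS by 0.37, with DSS 2 just under GsMTx4 2 (exact permutation p = 0.1, adjusted 0.3) and a difference of 0.19 without DSS 1, and DSS and Control overlapped (difference -0.16, exact permutation p = 0.6). The ratio of Cdx1 to Cdx2 was 2.19 ± 0.34 in Control, 2.18 ± 0.83 in DSS and 3.79 ± 1.29 in GsMTx4, with overlap in every pair of groups. Its differences were -0.01 for DSS minus Control (exact permutation p = 1) and 1.61 and 1.60 for GsMTx4 minus DSS and minus Control (exact permutation p = 0.2 for both).

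**Figure D3:**
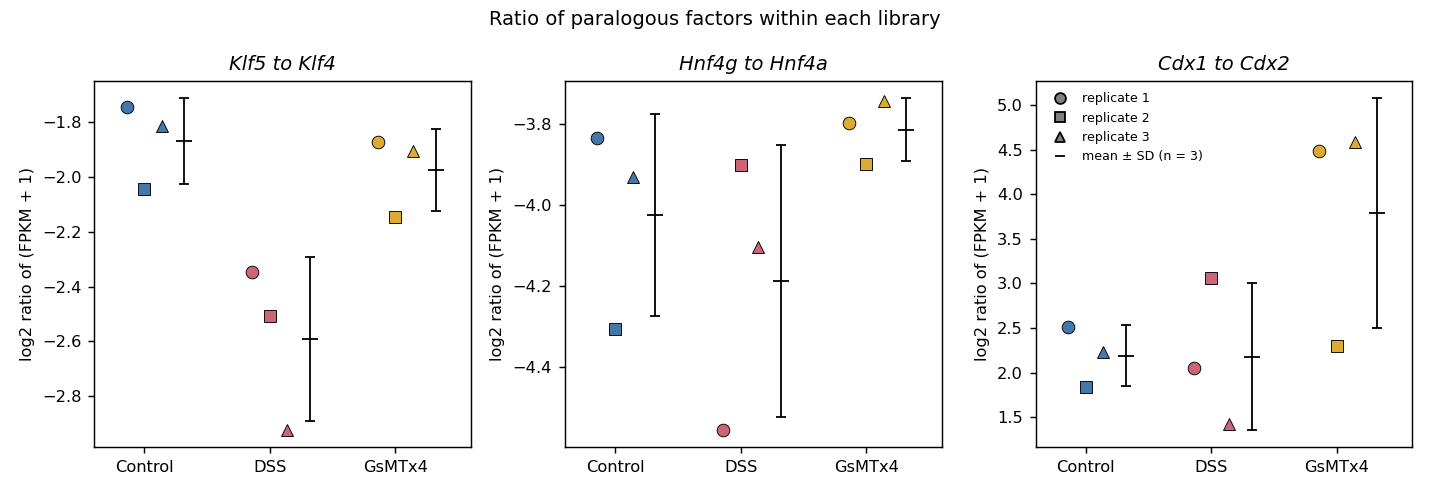
Log2 ratio of FPKM + 1 between paralogous factors within each library (vertical axes, with separate ranges that do not start at 0) for Klf5 to Klf4, Hnf4g to Hnf4a and Cdx1 to Cdx2. Symbols give the replicate and bars the mean ± SD of 3 libraries. The 3 DSS libraries have the lowest Klf5 to Klf4 ratios, and the Cdx1 to Cdx2 ratio is highest in GsMTx4 1 and 3.

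Of 32 other transcription factors of the intestinal epithelium, 29 could be tested. In DSS against Control 12 fell and 4 rose, with a median of -0.64, beside 10.7% lower and 6.41% higher among all tested genes. Foxa2, a forkhead factor of endoderm and goblet cells, fell from 15.2 to 2.49 FPKM (-2.23 ± 0.18 on the log2 scale, adjusted p = 0.000471, limma). Vdr, the vitamin D receptor, fell from 62.1 to 21.9 FPKM (-1.49 ± 0.18, adjusted p = 0.00170), and Ehf, an ETS factor of epithelia, from 81.1 to 39.1 FPKM (-1.04 ± 0.15, adjusted p = 0.00358). The 4 that rose were Elf3, Isx, Nr1h4 and Prdm1 (named after their values were seen), and they numbered 0 without Control 2, 1 without Control 1, DSS 2 or DSS 3, and 2 without Control 3. In GsMTx4 against DSS 7 rose and 2 fell, with a median of 0.30, beside 6.66% higher and 5.62% lower among all tested genes. Foxa2 (1.58 ± 0.18, adjusted p = 0.00212), Vdr (1.21 ± 0.18, adjusted p = 0.00560) and Ehf (0.96 ± 0.15, adjusted p = 0.00712) led again by p. The 7 that rose numbered 4 without DSS 2, DSS 3 or GsMTx4 2, and the 2 that fell, Maf and Prdm1 (named in the same way), numbered 1 without DSS 3 and 0 without GsMTx4 2. None passed limma's test in GsMTx4 against Control, where 2 higher and 11 lower had an unadjusted p under 0.05. The smallest p-values there belonged to Foxa1, a forkhead relative of Foxa2 (-0.56, adjusted p = 0.245), Maf, a leucine zipper factor of villus cells (-0.67, adjusted p = 0.256), and Foxa2 (-0.65, adjusted p = 0.280).

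Among the paralogs of the 7 factors, 1 passed in DSS and it was higher. Of 15 paralogs 10 were tested, beside 6.41% higher and 10.7% lower among all tested genes in DSS against Control. Klf10, a TGF-beta-induced relative of Klf5, was at 8.80, 5.51 and 7.06 FPKM in Control, at 20.5, 22.8 and 23.9 FPKM in DSS and at 10.8, 9.95 and 6.51 FPKM in GsMTx4. It was the 1 tested paralog that rose in DSS (1.54 ± 0.20, adjusted p = 0.00243, limma), and no tested paralog fell at an adjusted or unadjusted p under 0.05. Klf12 was below the filter and was not tested. Its level was 1.21, 0.991 and 0.912 FPKM in Control, 0.223, 0.125 and 0.1785 FPKM in DSS and 0.338, 1.10 and 0.621 FPKM in GsMTx4. Gata2 and Gata3, also untested, had higher means in DSS than in Control (0.428 against 0.2555 FPKM and 0.535 against 0.409 FPKM). These 3 were named after their values were seen. Klf10 fell in GsMTx4 against DSS (-1.24 ± 0.20, adjusted p = 0.00798), as did Klf2, a factor of endothelium and lymphocytes, from 12.7 to 4.49 FPKM (-1.35 ± 0.26, adjusted p = 0.0143). Klf13 and Klf9 in DSS against Control (0.28 and 0.22) and Klf11 in GsMTx4 against DSS (-0.43) did not pass, at adjusted p of 0.153, 0.276 and 0.0854. None passed in GsMTx4 against Control (1 higher and 1 lower at an unadjusted p under 0.05), where Klf2, Klf13 and Klf9 led (-0.99, 0.33 and 0.24, adjusted p = 0.263, 0.439 and 0.590).

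Genes known as targets of HNF4 were lower in DSS where they passed. Of 19 listed, 16 were tested, 6 fell in DSS and none rose, also by unadjusted p (median -0.57). The background was 10.7% lower and 6.41% higher among all tested genes. Ehhadh, a peroxisomal enzyme of fatty acid oxidation, was at 12.0, 13.5 and 12.8 FPKM in Control, 5.77, 5.12 and 5.31 FPKM in DSS and 13.3, 13.3 and 12.3 FPKM in GsMTx4. It fell in DSS by 1.10 ± 0.11 on the log2 scale (adjusted p = 0.000837, limma). Cldn15, a pore-forming claudin, fell from 24.8 to 2.51 FPKM (-2.87 ± 0.34, adjusted p = 0.00146), and Nox1, the colonic NADPH oxidase, from 19.5 to 0.733 FPKM (-3.66 ± 0.47, adjusted p = 0.00207). In GsMTx4 against DSS 7 rose and none fell (median 0.33), beside 6.66% higher and 5.62% lower among all tested genes. There 1 was lower at an unadjusted p under 0.05, and 1 fell without Control 1. Ehhadh was among those that rose (1.13 ± 0.11, adjusted p = 0.00136, limma). Apoa1, the main apolipoprotein of HDL, was at 0.0387, 0.111 and 0.122 FPKM in DSS and at 4.15, 4.68 and 3.57 FPKM in GsMTx4 (2.23 ± 0.14, adjusted p = 0.000357). Fabp1, the liver-type fatty acid binding protein, was at 0, 0 and 0.105 FPKM in DSS and at 2.48, 4.02 and 1.47 FPKM in GsMTx4 (1.76 ± 0.24, adjusted p = 0.00372). These 2 also rose against Control (2.32 and 1.77, adjusted p = 0.000254 and 0.0260), where Fabp2, the intestinal fatty acid binding protein, was -2.20 and did not pass (adjusted p = 0.231). The call of Fabp1 against Control passed in 11 of 20 alternatives. It was lost without any 1 Control library, without DSS 2 or without GsMTx4 1, with adjusted p from 0.0535 to 0.136. It was also lost at pseudocounts of 0.1 (0.0582) and 0.01 (0.371), when only the 2 groups were fitted (0.0808) and with the replicate block (0.0557). At a pseudocount of 0.01 the rise of Fabp1 over DSS (adjusted p = 0.0794) and that of Apoa1 over Control (0.101) missed the threshold.

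Apoa1 and Fabp1 are also genes of hepatocytes, which express Hnf4a strongly. Of 14 hepatocyte markers 12 were tested, and in GsMTx4 against DSS 10 rose and 1, Tat, fell (0 fell without DSS 3). The background was 6.66% higher and 5.62% lower among all tested genes. In GsMTx4 against Control 8 of the 12 rose and none fell, beside 0.188% higher and 0.0487% lower among all tested genes. With 1 library left out, the number that rose there ran from 4 to 10. Alb, for serum albumin, was at 1.22, 0.825 and 0.753 FPKM in Control, 0.0719, 0.479 and 0.111 FPKM in DSS and 13.2, 14.4 and 14.6 FPKM in GsMTx4. The summed level of the 14 markers was 40.0 to 55.7 FPKM in Control, 68.5 to 99.0 FPKM in DSS and 95.1 to 113 FPKM in GsMTx4, and 6, 2 and 0 of them were at 0 in all libraries of these groups. The higher sum in DSS came with Tat, a tyrosine-degrading enzyme, at 6.50 to 8.15 FPKM in Control, 49.3 to 74.9 FPKM in DSS and 10.98 to 30.8 FPKM in GsMTx4. In DSS against Control Tat rose and 2 markers fell, Alb and Ttr (1 fell without Control 1, Control 2, Control 3, DSS 1 or DSS 3). The background there was 6.41% higher and 10.7% lower among all tested genes. The mean log2 level of the 14 markers was 0.93 to 1.05 in Control, 0.92 to 1.17 in DSS and 2.36 to 2.73 in GsMTx4. Hnf4a was at 154 to 180 FPKM in Control, 92.9 to 139 FPKM in DSS and 148 to 166 FPKM in GsMTx4. The part of the hepatocyte transcripts in the Hnf4a, Apoa1 and Fabp1 values was not tested.

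Of 14 tested genes known as targets of CDX factors, 3 rose in DSS and none fell, also by unadjusted p (median 0.40). The background was 6.41% higher and 10.7% lower among all tested genes. Car1, a carbonic anhydrase of the proximal colon, was at 124, 257 and 73.4 FPKM in Control, at 399, 730.5 and 280.2 FPKM in DSS and at 80.6, 85.6 and 78.4 FPKM in GsMTx4 (DSS minus Control 1.70 ± 0.45, adjusted p = 0.0335, limma). Isx, an intestinal homeobox gene that is also among the other factors, rose from 0.949 to 12.3 FPKM (2.58 ± 0.64, adjusted p = 0.0258) and Cldn1, a tight junction claudin, from 0.622 to 1.94 FPKM (0.85 ± 0.18, adjusted p = 0.0149). None of the 3 was left without Control 1 or Control 3, and 1 was left without DSS 2, while without Control 2 there were 2 higher and 1 lower. By sign alone 3 of the 14 were lower in DSS. Among them was Cldn2, another claudin, named after its values were seen. It was at 42.9, 0.00127 and 41.05 FPKM in Control, with Control 2 near 0. Its level was 3.54, 1.09 and 1.36 FPKM in DSS and 19.4, 49.3 and 42.4 FPKM in GsMTx4. In GsMTx4 against DSS 4 fell and 1 rose (median -0.46), beside 5.62% lower and 6.66% higher among all tested genes. Car1 (-2.40 ± 0.45, adjusted p = 0.0125), Krt20, a keratin of mature surface cells (-0.83 ± 0.19, adjusted p = 0.0251), and Cldn1 (-0.78 ± 0.18, adjusted p = 0.0267) had the smallest p-values. The number that fell was 2 without DSS 1 and 1 without DSS 2 or GsMTx4 2, and the other that fell was the hormone gene Guca2a. The 1 that rose, Slc26a3, the chloride exchanger of the surface, lost its call when any 1 library other than Control 2 or GsMTx4 3 was left out. Guca2a and Slc26a3 were named for this comparison after their values were seen. None passed in GsMTx4 against Control (2 higher and 1 lower at an unadjusted p under 0.05), where Slc26a3 (0.53, adjusted p = 0.366), Guca2a (-1.44, adjusted p = 0.396) and Isx (1.60, adjusted p = 0.443) led.

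Of 13 genes known as targets of KLF4 or KLF5, 11 were tested. In DSS 2 fell and 1 rose (median -0.31), beside a background of 10.7% lower and 6.41% higher among all tested genes. Atoh1, the master factor of secretory cells and also among the other factors, fell from 33.0 to 10.96 FPKM (-1.53 ± 0.23, adjusted p = 0.00409, limma) and Fgfbp1, a growth factor carrier, from 36.8 to 20.0 FPKM (-0.86 ± 0.17, adjusted p = 0.0112). Pdgfa, a growth factor for mesenchymal cells, rose from 8.54 to 18.2 FPKM (1.01 ± 0.17, adjusted p = 0.00632). The call of Fgfbp1 was lost without Control 2 (adjusted p = 0.0550). In GsMTx4 against DSS, Fgfbp1 rose (1.08 ± 0.17, adjusted p = 0.00648), Pdgfa fell (-0.999 ± 0.17, adjusted p = 0.00954), and Atoh1 was at 0.74 ± 0.23 and missed the threshold (adjusted p = 0.0711). None passed in GsMTx4 against Control (2 lower at an unadjusted p under 0.05), where Cdkn1a, a cell cycle inhibitor, was at -0.58 (adjusted p = 0.302), Atoh1 at -0.80 (adjusted p = 0.308) and Fgfbp1 at 0.23 (adjusted p = 0.693).

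**Figure D4:**
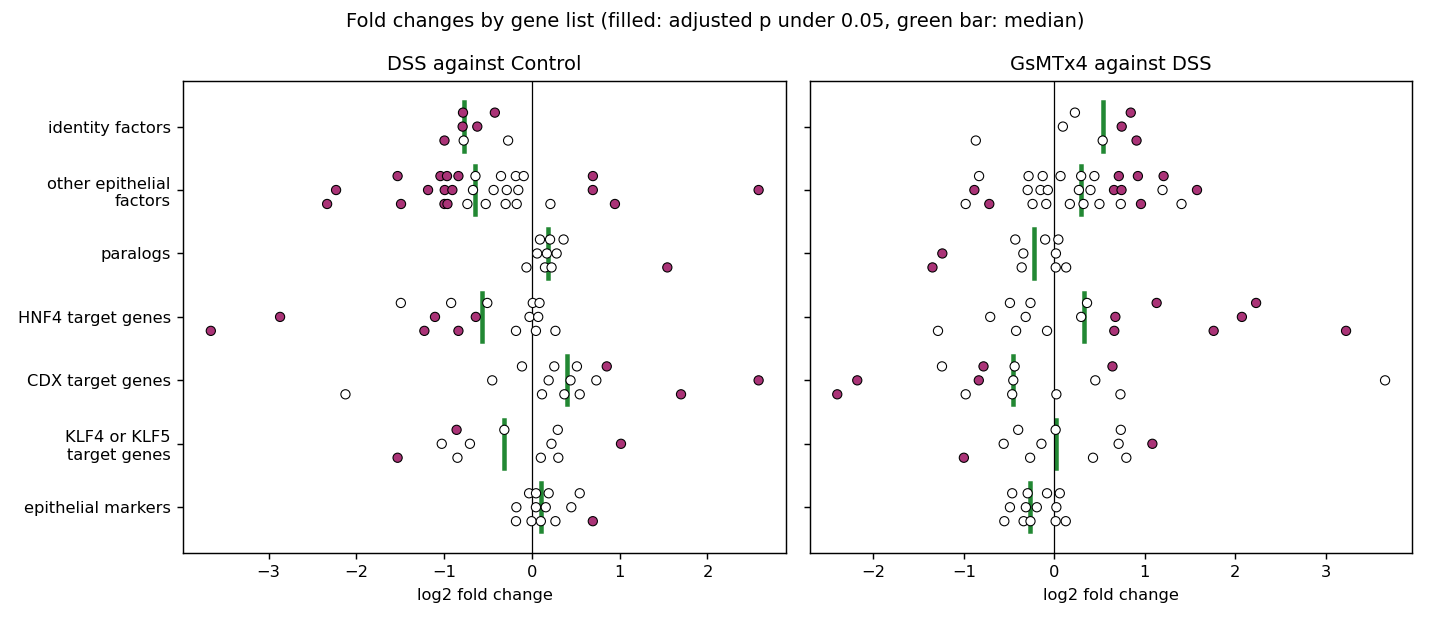
Log2 fold changes of single genes (points) by gene list (rows) on the log2(FPKM + 1) scale, for DSS against Control and GsMTx4 against DSS. Filled points passed at an adjusted p under 0.05, green bars are list medians, and vertical stacking only separates points. The median of the 7 identity factors is -0.78 in DSS against Control and 0.54 in GsMTx4 against DSS, whereas that of the epithelial markers is 0.10 and -0.26. Some genes are in more than 1 row, as several epithelial markers are also in the target lists or among the other factors.

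Marker genes of other cells were read beside the factors. The 13 general epithelial markers included Epcam and keratins of simple epithelia. The 7 identity factors are not among them, but the list overlaps with others used here. Cdh17 and Lgals4 are also listed as CDX targets, and Vil1, Epcam and Cldn7 as HNF4 targets. Krt19 is also listed as a KLF4 or KLF5 target, and Elf3 is among the other factors. Their median log2 fold change was 0.10 in DSS against Control and -0.26 in GsMTx4 against DSS. Their summed level was 6144 to 7522 FPKM in Control, 6075 to 8522 FPKM in DSS and 6068 to 7688 FPKM in GsMTx4. The highest value of a single marker was 2492, 2628 and 2723 FPKM in these groups. None fell in limma's test in DSS against Control or GsMTx4 against DSS (0 and 3 lower at an unadjusted p under 0.05), and 1, Elf3, rose in DSS (168 to 267 FPKM, 0.69 ± 0.20, adjusted p = 0.0425, limma), a call lost when any 1 of Control 2, Control 3, DSS 1, DSS 2, DSS 3 or GsMTx4 2 was left out. With each library scaled so that the epithelial markers stood level, 5 of the 7 factors passed as lower in DSS (median -0.92) and 4 as higher in GsMTx4 against DSS (median 0.75). The mean log2 level of these markers was 8.10 to 8.28 in Control, 8.255 to 8.46 in DSS and 8.00 to 8.17 in GsMTx4. Holding them level therefore by itself lowers the DSS values against both other groups.

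The summed level of 11 immune markers was 197 to 342 FPKM in Control, 682.5 to 935 FPKM in DSS and 335 to 428 FPKM in GsMTx4. The highest value of a single marker was 290, 593 and 342 FPKM in these groups, a large part of the sums. Their mean log2 level was 2.22 to 2.53, 3.81 to 4.64 and 2.66 to 3.48. Of the 10 tested 5 rose in DSS: S100a8 and S100a9 of neutrophils, Lyz2 and Csf1r of macrophages and Cd79a of B cells (3 rose without Control 2, Control 3 or DSS 3). The background was 6.41% higher among all tested genes. The summed level of 9 endothelial markers was 26.9 to 35.1, 43.7 to 83.6 and 25.4 to 36.9 FPKM, and that of 11 smooth muscle and mesenchymal markers 540 to 779, 306 to 1047 and 620 to 810 FPKM. In DSS 5 endothelial markers rose (0 to 5 with libraries left out) and no mesenchymal marker passed. In GsMTx4 against DSS 2 immune, 2 endothelial and 2 mesenchymal markers fell and none rose, beside 5.62% lower among all tested genes. With libraries left out these numbered 2 to 3, 0 to 4 and 0 to 2. In bulk tissue, fewer cells that express a factor and less of its RNA per cell cannot be told apart, and the part of these other cells in the results was not tested. Of 13 listed markers of stomach and 10 of squamous epithelium, 9 each had a value. These were under 1 FPKM in all libraries (at most 0.395 and 0.553 FPKM). Gkn1, Gkn2, Muc5ac and Anxa10 of stomach and Sprr3 of squamous epithelium had no value. Of 6 tested genes of position along the colon, 1 fell and 1 rose in DSS, and the same number rose and fell in GsMTx4 against DSS. In DSS 0 rose without Control 1, Control 3, DSS 1 or DSS 2, 2 rose without DSS 3 and 2 fell without DSS 1. Slc37a2, a sugar-phosphate transporter family gene, fell in DSS from 81.6 to 8.33 FPKM (-3.12 ± 0.35, adjusted p = 0.00127, limma) and rose in GsMTx4 against DSS (2.66 ± 0.35, adjusted p = 0.00361), and the gene that went the other way was Car1, given among the CDX targets. Hoxb13, a distal homeobox gene, in DSS against Control (-1.05, adjusted p = 0.0780) did not pass. In GsMTx4 against Control none of the 6 passed (0 at an unadjusted p under 0.05, limma).

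Over the 9 libraries, the log2 levels of the factors other than Cdx2 went together, from Pearson r = 0.571 for Hnf4g with Gata6 to r = 0.960 for Hnf4a with Klf5. Cdx2 stood apart, with r from -0.200 with Hnf4g to 0.469 with Gata6. These are descriptions over libraries that fall into 3 treatment groups, and the values share the scaling of each library. Among all other tested genes with an assigned name, those most like Cdx1 were Tmem97 (r = 0.985), Hebp2 (0.982) and Zfp97 (0.982), and those most like Cdx2 were Fbxw5 (0.975), Paxbp1 (0.955) and Tial1 (0.952). Paxbp1, for example, was at 6.12, 10.0 and 6.24 FPKM in GsMTx4 1, 2 and 3, low in the same libraries as Cdx2. Genes near Hnf4a were Dnmbp (0.965) and Klf5 (0.960), and Hnf4g was nearest to Dhrs7 (0.971), Prdm14 (0.969) and Slc44a1 (0.965). Klf5 was nearest to Uqcrc1 (0.985), Vdr (0.976) and AI854703 (0.975), and Klf4 to Smug1 (0.969), Tbc1d13 (0.960) and Trpm6 (0.951). Gata6 was nearest to Cbfb (0.979), Tcf7l1 (0.973) and Gys1 (0.966). Tcf7l1, a Wnt pathway repressor, was at 19.5, 16.7 and 17.2 FPKM in Control, 8.98, 6.67 and 5.11 FPKM in DSS and 8.01, 7.79 and 5.21 FPKM in GsMTx4, so that, as for Gata6, both DSS-treated groups were below Control.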

How the data were processed

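Total RNA of mouse colon was sequenced with standard Illumina libraries, per the labels' protocols. The authors deposited 1 table of FPKM values per gene and library. Reads were trimmed with cutadapt and checked with FastQC on build GRCm38, per the submitters' processing notes. For the aligner and the FPKM program no name is given in the sources used here. Depth in reads is unknown; FPKM sums ran from 349125 to 440935 and 12830 to 14036 genes reached 1 FPKM per library. Groups and replicate numbers come from the sample titles.

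Symbols and positions come from GENCODE M21 (35196 of 35315 genes matched), promoters from RefSeq. Values were taken as log2(FPKM + 1), which understates changes of low genes. The 14360 genes at 1 FPKM or more in at least 3 libraries were fitted with limma 3.58.1 in R 4.3.3 over all 9 libraries, 1 mean per group, 6 residual degrees of freedom, empirical Bayes with trend, two-sided, with Benjamini-Hochberg adjustment over all tested genes and a threshold of 0.05. The fit was tested on simulated data. Ratios had exact permutation tests over libraries. The genes and lists were chosen with earlier results of these data known. Named are the 7 factors, from each other list per comparison the 3 genes with the smallest p (marker lists partly as ranges), and per factor the 3 genes with the highest correlation, of which 1 is not reported here. Alternatives were 2 pseudocounts, 2 filters, 4 scalings, a fit of 2 groups, 2 empirical Bayes settings, the replicate block and each library left out in turn. Figures used matplotlib 3.10.9 in Python 3.11.15.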

Additional observations from a re-analysis of the deposited data

How the results depend on the processing

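No factor that passed changed direction in DSS against Control or GsMTx4 against DSS under any of the 21 alternatives. Of 441 values of the factors under alternatives, 388 kept direction and call, 40 lost a call, 3 gained one and 10 changed sign, all 10 in GsMTx4 against Control with values near 0: Cdx1 was 0.076, Klf4 0.078 and Hnf4a 0.034 with median-of-ratios scaling, Cdx1 was 0.006 and Klf4 0.007 with epithelial marker scaling, and with libraries left out Cdx1 ran from -0.119 to 0.037, Hnf4g from -0.001 to 0.267 and Klf4 from -0.109 to 0.032. Of 1251 values of the other named genes 1187 stayed the same, 43 lost a call, 20 gained one, and Rbp2 in GsMTx4 against Control changed sign (-0.27 to 0.78 with libraries left out).

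The 5 factors passing in DSS against Control became 3 without a filter and 2 with median-of-ratios scaling, and the 3 in GsMTx4 against DSS became 1 with median-of-ratios scaling and 1 when 2 groups were fitted. With libraries left out they numbered 2 to 5 (2 without Control 1 or Control 2, 3 without Control 3, DSS 2 or DSS 3), 1 to 4 (1 without DSS 3, and 1 higher and 1 lower without GsMTx4 2) and 0 in GsMTx4 against Control. The 2462 genes passing in DSS against Control became 1571 at a mean FPKM of at least 5, the 1763 in GsMTx4 against DSS became 1073 without a filter and 587 with 2 groups, and the 34 in GsMTx4 against Control became 21 and 4 with pseudocounts of 0.1 and 0.01 and 5 at a mean FPKM of at least 5. With libraries left out these numbered 963 (without Control 2) to 3101, 716 (without GsMTx4 2) to 1977, and 13 (without Control 3) to 83 (without GsMTx4 3). The cause was not tested.

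The median fold change of all tested genes in DSS against Control moved from -0.17 to -0.28 with TPM scaling, -0.03 with median of ratios, -0.06 with quantile normalization and -0.29 with epithelial marker scaling, and in GsMTx4 against DSS from 0.07 to 0.23 with the last. The factors' median moved with it, from -0.78 to -0.88, -0.61, -0.70 and -0.92. The share of calls that were higher was 37.4% in DSS against Control as deposited, 27.5% with TPM, 58.6% with median of ratios, 50.1% with quantile normalization and 23.7% with epithelial marker scaling, and in GsMTx4 against DSS 54.2% as deposited and 78.6% with the last.

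Libraries with the same replicate number did not deviate together (correlations of -0.23 to 0.10), so the numbers were not taken as pairs. With the replicate block, 3 factors and 1708 genes passed in DSS against Control, 3 factors and 1078 genes in GsMTx4 against DSS, and 0 factors in GsMTx4 against Control.

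The log2 ratio of Cdx1 to Cdx2 in DSS minus Control was near 0 and changed sign with a pseudocount of 0.1 (0.014) and with libraries left out (-0.46 to 0.36), and that of Hnf4g to Hnf4a ran from -0.305 to 0.022, above 0 without DSS 1. Without 1 library, Hnf4g to Hnf4a in GsMTx4 minus DSS ran from 0.189 to 0.516, and Klf5 to Klf4 kept its sign (-0.85 to -0.56 in DSS minus Control).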
